A study of Mus musculus with 6 samples.

Results

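To ask how target genes of the Hippo effectors YAP and TAZ and of their TEAD partners responded to LDL, 10 genes were followed in small intestinal organoids: Ccn1, Ccn2, Ankrd1, Ajuba, Amotl1, Amotl2, Lats2, Axl, F3 and Nuak2. They were chosen by name as targets of this pathway, with earlier results of these data known. Counts of them called, and of the other lists below, are therefore not an independent test. All 10 were found among the 55416 Ensembl genes of the deposited table. Crypts of the duodenum and jejunum came from 3 WT mice of strain C57BL/6 and were cultured in Matrigel for 5 days. Organoids of each mouse were treated with LDL (50 μg/ml) or with PBS, which gave 3 LDL-treated and 3 PBS-treated libraries, each mouse contributing 1 library to both. The identifier of mouse 3 has a different prefix from those of mice 1 and 2, although the genotype label is WT for all 6 libraries, and values without mouse 3 are therefore given below. No cells were sorted, so that a bulk value cannot tell more RNA per cell from more cells of one kind.

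In the Hippo pathway, the kinases MST1/2 activate the kinases LATS1/2, which phosphorylate the coactivators YAP and TAZ and keep them out of the nucleus. When the cascade is low, YAP and TAZ enter the nucleus, bind TEAD factors on DNA and induce genes of the matrix, the cytoskeleton and growth, together with inhibitors of their own such as LATS2 and the angiomotins. In the intestine, YAP activity is known from regeneration after injury and from the spheroid state of cultured crypts.

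Of these 10 genes, 7 rose with LDL: F3, Ccn2, Amotl1, Ajuba, Lats2, Ccn1 and Amotl2, by 2.51-fold to 12.4-fold on the scale of the normalized count plus 1. Calls required both more than 1.5-fold and an adjusted p-value below 0.05 in a limma fit (two-sided) that included the mouse as a term, which called 5.68% of all 18459 genes tested higher and 3.46% lower. Changes are given on the log2 scale of the normalized count plus 1, as LDL minus PBS. All LDL-treated libraries were above all PBS-treated libraries for 7 of the 10 (11.9% of genes tested) and below them for 0 (12.3%). Each of the 3 mice was higher with LDL for 8 (24.2% of genes tested) and lower for 1 (26.8%). Nuak2 was not called, and Ankrd1 and Axl had too few reads to enter the test, which required a mean normalized count of at least 10. Ccn2 entered it through its LDL-treated libraries, since its PBS mean was under that limit. With LDL and PBS taken as independent groups, which leaves differences between mice in the error, 2 of the 10 genes (Ajuba and Amotl2) were called higher, against 0.878% of genes tested, and 0 lower, against 0.395%. In that fit, the adjusted p-values of the other 5 were between 0.0537 and 0.163, and all 7 had an unadjusted p-value under 0.05 (limma). Over all alternatives, the highest adjusted p-value of a gene lay between 0.183 (Ajuba) and 0.442 (Amotl1). The same 7 were called on recovered reads by edgeR (6.34% of genes higher and 3.19% lower) and by DESeq2 with the mouse as a term (5.12% and 3.0%) and without it (4.44% and 1.94%). Without mouse 3, the fit with the mouse as a term called 3 of the 10 (Ajuba, Amotl1 and F3), against 1.44% of genes tested. Without mouse 1 or without mouse 2 it called the same 7, against 4.11% and 8.69%.

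Between 22061545 and 31073360 reads per library lay on genes. The LDL-treated library of mouse 1 stood apart: 7.62% of its reads lay on Rn18s-rs5, an 18S ribosomal RNA gene, against 0.0826% to 3.02% in the others, and it had reads on 35781 genes against 29285 to 32751. Epithelial markers were abundant, with a summed normalized count of 10 genes of 110500 to 143000 in LDL-treated and 95740 to 98980 in PBS-treated organoids. Summed counts of 10 fibroblast and muscle markers were 32.7 to 96.4 with LDL and 46.4 to 86.8 with PBS, with Dcn at 0 in all PBS-treated libraries and Col1a2, Dcn, Lum and Thy1 at 0 in the LDL-treated library of mouse 2. Of these, Col3a1 was above all PBS-treated libraries in every LDL-treated one (means 5.10 and 0.271), and Pdgfrb was below them in every one (11.9 and 24.1). Summed counts of 6 endothelial markers were 16.4 to 40.3 with LDL and 19.5 to 34.7 with PBS. Those of 6 immune markers were 149 to 221 and 134 to 191, most of it Cd68, with Adgre1 at 0 in all PBS-treated libraries.

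Ccn1 and Ccn2 (formerly Cyr61 and Ctgf) encode secreted matricellular proteins and are widely used readouts of YAP activity. Ccn1 lies on chromosome 3 (145352720 to 145355738, minus strand) and Ccn2 on chromosome 10 (24471333 to 24474900, plus strand) of GRCm39. The upstream sequence of Ccn1 is shown because it holds the TEAD core motif CATTCC (or GGAATG on the other strand), which is in capitals. The stretch chr3:145355739-145355988 covers the 250 bases before the start of the canonical transcript, written 5′ to 3′ on the strand of the gene.
Ccn1: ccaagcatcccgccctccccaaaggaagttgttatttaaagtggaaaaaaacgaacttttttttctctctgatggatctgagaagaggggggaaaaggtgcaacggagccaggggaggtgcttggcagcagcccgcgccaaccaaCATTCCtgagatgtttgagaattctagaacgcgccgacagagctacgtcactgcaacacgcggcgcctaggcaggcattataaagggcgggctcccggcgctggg
The single copy lay from base -105 to -100, counted back from the start.

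The normalized count of Ccn1 was 72.5, 58.4 and 88.7 in the PBS-treated libraries of mice 1, 2 and 3 and 367, 106 and 206 in the LDL-treated ones. All LDL-treated values lay above all PBS-treated values, and the mean was 226 ± 132 with LDL and 73.2 ± 15.2 with PBS (SD, n = 3). The log2 change was 1.46 ± 0.27 (SE, adjusted p = 0.0102, limma). Ccn2 was at 6.12, 2.49 and 4.07 with PBS and at 150.0, 14.6 and 42.6 with LDL, again without overlap. In PBS-treated organoids this rested on 2 to 6 reads per library, and within mice the ratio of LDL to PBS was 24.5 (95% counting interval 10.9 to 68), 5.85 (1.38 to 52.5) and 10.5 (4.21 to 33.6). For Ccn2 the log2 change was 3.22 ± 0.45 (SE, adjusted p = 0.00360, limma). Of the pair, the less abundant had the larger fold change, a difference that was not tested. Per kb of exon, the level of Ccn2 was 2.71% to 5.39% of that of Ccn1 with PBS and 8.72% to 26.1% with LDL. The paralogs Ccn3, Ccn4, Ccn5 and Ccn6 had mean normalized counts of 1.29 to 5.43 and were not tested.

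F3 encodes tissue factor, the cell-surface receptor that starts the coagulation cascade, and lies on chromosome 3 (121516610 to 121528820, plus strand). Per kb of exon, its mean level with LDL was the highest of the 10, although in mouse 2 Ajuba (82.8 normalized counts per kb) was level with F3 (81.0). Its log2 change on the scale of the count plus 1 was the largest of the 8 genes tested, while with DESeq2 (mouse as a term) that of Ccn2 was larger (3.76 against 3.67). Its normalized count was 180, 52.2 and 156 with PBS and 4340, 251 and 2604 with LDL. All LDL values were above all PBS values, although the LDL-treated library of mouse 2 was far below the other two. The log2 change was 3.63 ± 0.37 (SE, adjusted p = 0.00101, limma), and within mice it was 4.59, 2.24 and 4.05. F3 held no TEAD core in the 250 bases before its start, but a pair of AP-1 cores (TGANTCA), which are in capitals in the stretch chr3:121517034-121517063, plus strand, bases -152 to -123.
F3: cgctgtTGAATCAcggtTGAGTCAcccctt
On the strand opposite to F3 lies Gm43823, with a mean normalized count of 9.84 with LDL and 1.83 with PBS, and opposite to Ccn2 lies the lncRNA gene Gm15270, with 7.37 and 0.957. As the strand setting of the counting is not known, reads of such pairs cannot be told apart.

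Ajuba, Lats2, Amotl1 and Amotl2 encode proteins that act back on the pathway. AJUBA is a LIM domain protein that binds LATS kinases, LATS2 phosphorylates YAP and TAZ, and the angiomotin-like proteins hold YAP at junctions and the actin cytoskeleton. Ajuba on chromosome 14 (54804787 to 54815027) was at 105, 82.0 and 150 with PBS and 810, 315 and 775 with LDL. The groups did not overlap, and the log2 change was 2.41 ± 0.18 (SE, adjusted p = 0.000282, limma), the lowest adjusted p-value of the 10. Lats2, also on chromosome 14 (57926960 to 57995845), was at 23.5, 19.9 and 19.5 with PBS and 104, 48.2 and 62.7 with LDL. Its PBS values were close to each other and all were under the LDL values, with a log2 change of 1.66 and a standard error of 0.25 (adjusted p = 0.00497, limma).
Amotl1 on chromosome 9 (14453262 to 14556352) was at 56.1, 11.2 and 23.6 with PBS and 413, 36.4 and 308 with LDL. Here the groups overlapped, because the LDL-treated library of mouse 2 was below the PBS-treated library of mouse 1, but each mouse was higher with LDL, by 7.36-fold, 3.25-fold and 13-fold. The log2 change was 2.71 ± 0.35 (SE, adjusted p = 0.00275, limma). Amotl2 on the same chromosome (102593836 to 102610617) was at 109, 106 and 128 with PBS and 379, 200.1 and 310.2 with LDL. The groups did not overlap, and the log2 change was 1.32 ± 0.18 (SE, adjusted p = 0.0031, limma). Amotl2 held 2 TEAD cores, from -235 to -230 and from -135 to -130, and the stretch chr9:102594653-102594866 (plus strand, bases -214 to -1, outside exons of its transcripts) shows the second in capitals.
Amotl2: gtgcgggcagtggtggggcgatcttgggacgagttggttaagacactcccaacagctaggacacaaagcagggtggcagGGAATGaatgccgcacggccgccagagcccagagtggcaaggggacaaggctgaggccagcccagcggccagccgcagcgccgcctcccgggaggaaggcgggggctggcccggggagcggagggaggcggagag

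Nuak2, a kinase of the AMPK-related family that acts on actomyosin, was the tested gene that was not called. It lies on chromosome 1 (132243853 to 132261226) and was at 291, 349 and 346 with PBS and 238, 306 and 259 with LDL. The groups overlapped, and all 3 mice were lower with LDL, with a log2 change of -0.30 (95% interval -0.55 to -0.05, adjusted p = 0.107, limma), so that a rise of 1.5-fold lay outside the interval. Before its start lie 2 TEAD cores, from -196 to -191 and from -37 to -32, shown in capitals in chr1:132243614-132243852 (plus strand, bases -250 to -12) because they occur in a gene that was not called.
Nuak2: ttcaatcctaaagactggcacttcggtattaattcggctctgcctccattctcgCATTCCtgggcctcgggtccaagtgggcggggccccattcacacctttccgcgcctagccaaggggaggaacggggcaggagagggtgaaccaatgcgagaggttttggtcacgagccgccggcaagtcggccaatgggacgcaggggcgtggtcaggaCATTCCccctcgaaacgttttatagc
The paralog Nuak1 was not called either, with a log2 change of -0.19.

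Ankrd1 and Axl were near the limit of detection. Ankrd1 encodes a nuclear ankyrin repeat protein of muscle and lies on chromosome 19 (36089352 to 36097506). It had 1, 4 and 3 reads with PBS and 14, 1 and 17 reads with LDL in mice 1, 2 and 3, that is, normalized counts of 1.02, 4.97 and 2.44 against 17.1, 0.909 and 14.2. It was thus higher with LDL in mice 1 and 3, with ratios of LDL to PBS of 16.7 (95% counting interval 2.55 to 707) and 5.82 (1.68 to 31), and lower in mouse 2, with a ratio of 0.183 (0.00372 to 1.85). Axl, a receptor tyrosine kinase for GAS6 on chromosome 7 (25456535 to 25488329), had 2, 1 and 1 reads with PBS and 8, 6 and 4 with LDL. Its normalized counts of 2.04, 1.24 and 0.814 with PBS all lay below those of 9.76, 5.46 and 3.34 with LDL. The ratios of LDL to PBS were 4.78 (0.954 to 46.2), 4.39 (0.533 to 202) and 4.11 (0.407 to 202), and each counting interval included 1. In a fit without the limit on the mean, in which 2.46% of 43039 genes were called higher and 1.48% lower, neither was called (adjusted p = 0.562 for Ankrd1 and 0.198 for Axl, limma). Of the other receptors of its family, Mertk fell with a log2 change of -0.71 (adjusted p = 0.0110, limma), and Tyro3 had a log2 change of 0.59 (adjusted p = 0.0552, limma).

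**Figure D1:**
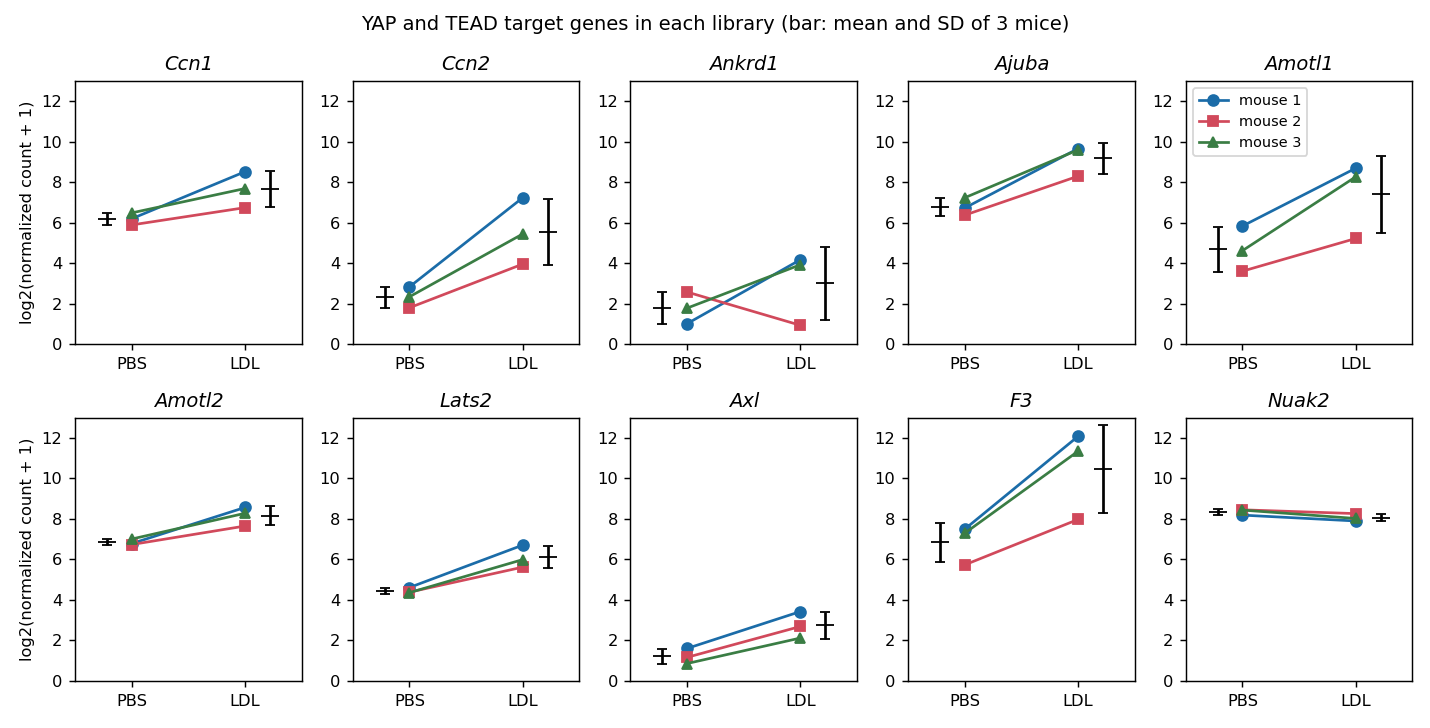
Log2 of the normalized count plus 1 for the 10 genes in PBS- and LDL-treated organoids, with a line for each mouse and a bar for the mean and SD of 3 mice. F3, Ccn2 and Amotl1 had the largest mean changes on this scale and Nuak2, which was not called, was slightly lower in each mouse. The LDL-treated library of mouse 2 was the lowest of the 3 for 8 of the 10 genes.

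The mice differed in the size of these changes. The change from PBS to LDL was smallest in mouse 2 for 8 of the 10 genes (all but Axl and Nuak2), counting a fall as smaller than a rise, and largest in mouse 1 for 8. The LDL-treated library of mouse 1, which stood apart in ribosomal reads, had the highest level of 9 of the 10 genes, and the part of that library quality in their levels was not tested beyond leaving the mouse out. Without mouse 1 the same 7 genes were called, with log2 changes of 1.03 for Ccn1 and 2.63 for Ccn2. The summed normalized count of the 10 genes was 6828, 1284 and 4585 in the LDL-treated libraries of mice 1, 2 and 3 and 846, 687 and 919 in the PBS-treated ones.
Per kb of exon, the order of mean levels with PBS was Nuak2 (74.5 ± 7.42 normalized counts per kb), F3 (41.8 ± 21.9), Ccn1 (36.0 ± 7.47), Ajuba (29.6 ± 9.07), Amotl2 (16.2 ± 1.69), Amotl1 (3.00 ± 2.30), Lats2 (2.00 ± 0.21), Ccn2 (1.33 ± 0.57), Ankrd1 (0.942 ± 0.671) and Axl (0.149 ± 0.068; SD, n = 3 throughout). F3, Ccn1 and Ajuba had overlapping ranges over the 3 libraries, as did Amotl1, Lats2 and Ccn2. The range of Amotl2 also overlapped that of F3, and the range of Ankrd1 those of Ccn2 and Amotl1. With LDL, F3 (774 ± 662 normalized counts per kb) came first, followed by Ajuba (167 ± 72.7) and Ccn1 (111 ± 64.8), whose ranges all overlapped. Nuak2 (60.7 ± 7.96) came next, with a range that lay within that of Ccn1.

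**Figure D2:**
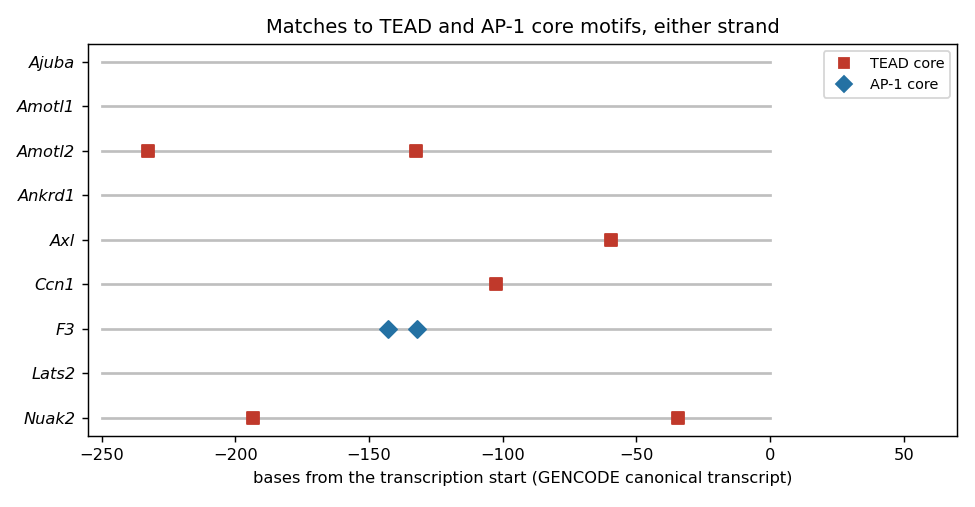
Positions of matches to the TEAD core (squares) and the AP-1 core (diamonds) on either strand in the 250 bases before the start of 9 of the genes, in bases from the start. Amotl2 and Nuak2 had 2 each, Ccn1 and Axl 1 each, and F3 had 2 AP-1 cores.

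The motif search covered 250 bases before the canonical start of 21614 protein-coding genes of GENCODE on GRCm39. Of the 10 genes, 9 are given here. A TEAD core (CATTCC or GGAATG) was found in 4 of these 9, namely Ccn1, Amotl2, Axl and Nuak2, and in 12.1% of all these promoters. It was found in 1 of the 14 other targets (7.14%), 9 of the 29 Hippo components (31.0%) and 1 of the 9 intestinal genes (11.1%) described below. An AP-1 core (TGANTCA, a palindrome, so that one search covers both strands) was found in 1 of the 9, F3, and in 6.19% of all promoters. In those lists it was found in 0 of 14, 0 of 29 and 2 of 9. A match is a run of letters and not a measured binding site, and the genes without a match in this window can have sites elsewhere. Of the genes among these 9 that rose, Ccn1 and Amotl2 held a TEAD core, and so did Nuak2, which was not called.

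A list of 14 other genes known as YAP targets was examined next. Myof, Igfbp3, Ptpn14, Arhgef17 and Rbms3 were called higher, which was 5 of the 12 that could be tested (5.68% of all genes tested). None was called lower (3.46%). Myoferlin, a membrane repair protein, rose from 329 ± 127 to 1953 ± 1407 (SD, n = 3), by a log2 change of 2.22 (adjusted p = 0.00281, limma). Igfbp3, a secreted binding protein of insulin-like growth factors, rose from 7.43 ± 2.2 to 86.2 ± 77.6 (SD, n = 3), by a log2 change of 2.74 (adjusted p = 0.0129, limma), and passed the filter through its LDL-treated libraries. Ptpn14, a phosphatase that binds YAP, had a log2 change of 1.86 (adjusted p = 0.00326, limma). Arhgef17, a guanine nucleotide exchange factor, had a log2 change of 1.32, 1.30 and 1.28 in mice 1, 2 and 3. Rbms3, an RNA-binding protein gene, had a log2 change of 1.39 (adjusted p = 0.0292, limma), but was not called with DESeq2 (adjusted p = 0.0897, mouse as a term).
Of the remaining 7 tested, Crim1 was lower in each mouse with a log2 change of -0.53 (adjusted p = 0.00612, limma), under the fold limit, and Gadd45a, Tgfb2, Dock5, Asap1, Nt5e and Fjx1 had log2 changes between -0.17 and 0.73 with adjusted p-values of 0.0838 or more. The median log2 change was 0.69 over the 12, against -0.02 over all genes tested. Foxf2 and Ccdc80 were under the limit on the mean. Without the mouse as a term, none of the 12 was called (0.878% of all genes tested higher) and 5 had an unadjusted p-value under 0.05 and a higher mean (limma). DESeq2 called 4 of the 12 higher both with the mouse as a term (5.12%) and without it (4.44%). None was called higher without mouse 3 (1.44%), where 5 had an unadjusted p-value under 0.05 and a higher mean and 1 a lower mean (limma). In mice 1 and 2, each of the 5 genes called with all mice was higher with LDL. The part of mouse 3 in these calls was not tested further.

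**Figure D3:**
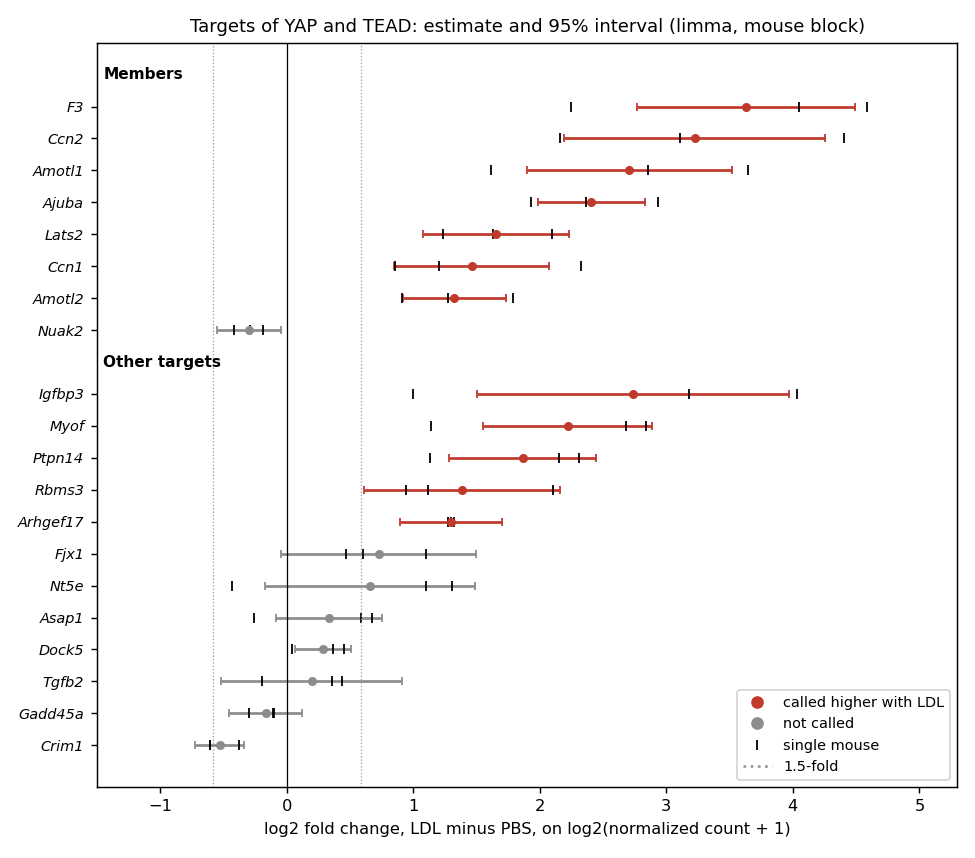
Log2 changes (LDL minus PBS) of the 8 tested genes of the 10 and 12 tested other targets, with 95% intervals from limma with the mouse as a term and ticks for single mice, and dotted lines at 1.5-fold. Points in red were called higher, and Nuak2 and Crim1 had intervals below 0.

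The machinery of the pathway was then examined in a list of 29 components, of which 27 could be tested. Of the kinase cascade and its cofactors, Lats2 is among the 10 genes and rose (above). The others were not called: Stk3, Stk4, Sav1, Lats1, Mob1a, Mob1b, Taok1, Taok2, Taok3 and Map4k4 had log2 changes between -0.18 and 0.15, with adjusted p-values of 0.161 or more (limma). Their 95% intervals all lay between -0.35 and 0.37, so that a change of 1.5-fold was outside each. For Lats1 the 95% interval was -0.21 to 0.13. Of the coactivators, Yap1 had a log2 change of 0.13 (95% interval -0.05 to 0.30, adjusted p = 0.325, limma), whereas Wwtr1, which encodes TAZ, rose from 64.9 ± 14.4 to 252 ± 99.5 (SD, n = 3). The log2 change was 1.88 ± 0.17 (SE, adjusted p = 0.000644, limma), and it was also called without the mouse as a term. Per kb of exon, Wwtr1 was at 2.14% to 2.84% of the level of Yap1 with PBS and at 12.4%, 5.61% and 9.37% with LDL in mice 1, 2 and 3.
Among the DNA-binding partners, Tead4 rose from 18.9 ± 8.82 to 165 ± 115 (SD, n = 3), by a log2 change of 2.78 (adjusted p = 0.00120, limma), and Tead1 had a log2 change of 0.70 (adjusted p = 0.00281, limma). Tead2 had 0.49 (adjusted p = 0.0394, limma), under the fold limit, and Tead3 had -0.07 (95% interval -0.27 to 0.13). Per kb of exon, Tead1 was at 95.5 ± 28.2 normalized counts with PBS and 160.3 ± 69.4 with LDL, Tead3 at 97.9 ± 3.77 and 93.4 ± 9.60, and Tead4 at 3.11 ± 1.45 and 27.2 ± 18.9 (SD, n = 3). Vgll3, a vestigial-like cofactor of TEADs, rose from 3.60 ± 3.13 to 58.2 ± 39.5 (SD, n = 3), by a log2 change of 3.71 (adjusted p = 0.000488, limma), and passed the filter through its LDL-treated libraries.
Among scaffolds, both KIBRA-type genes rose: Wwc1 had a log2 change of 1.04 (adjusted p = 0.000286, limma) and Wwc2 of 3.06 (adjusted p = 0.000432, limma), with means of 2735 and 306 normalized counts with LDL. Wtip, a LIM protein related to AJUBA, had a log2 change of 1.06 (adjusted p = 0.0484, limma), and was also called by edgeR (adjusted p = 0.0435), but not without the filter on the mean (adjusted p = 0.0745, limma), with DESeq2 (adjusted p = 0.191, mouse as a term) or without the mouse as a term (adjusted p = 0.200, limma). Its relative Limd1 had -0.04. Amot had a log2 change of 0.17 (95% interval -0.01 to 0.36). In all, 7 of the 27 were called higher (5.68% of all genes tested) and none lower (3.46%), and their median log2 change was 0.08. Without the mouse as a term, Wwtr1 and Wwc2 were called higher (0.878% of all genes tested).

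**Figure D4:**
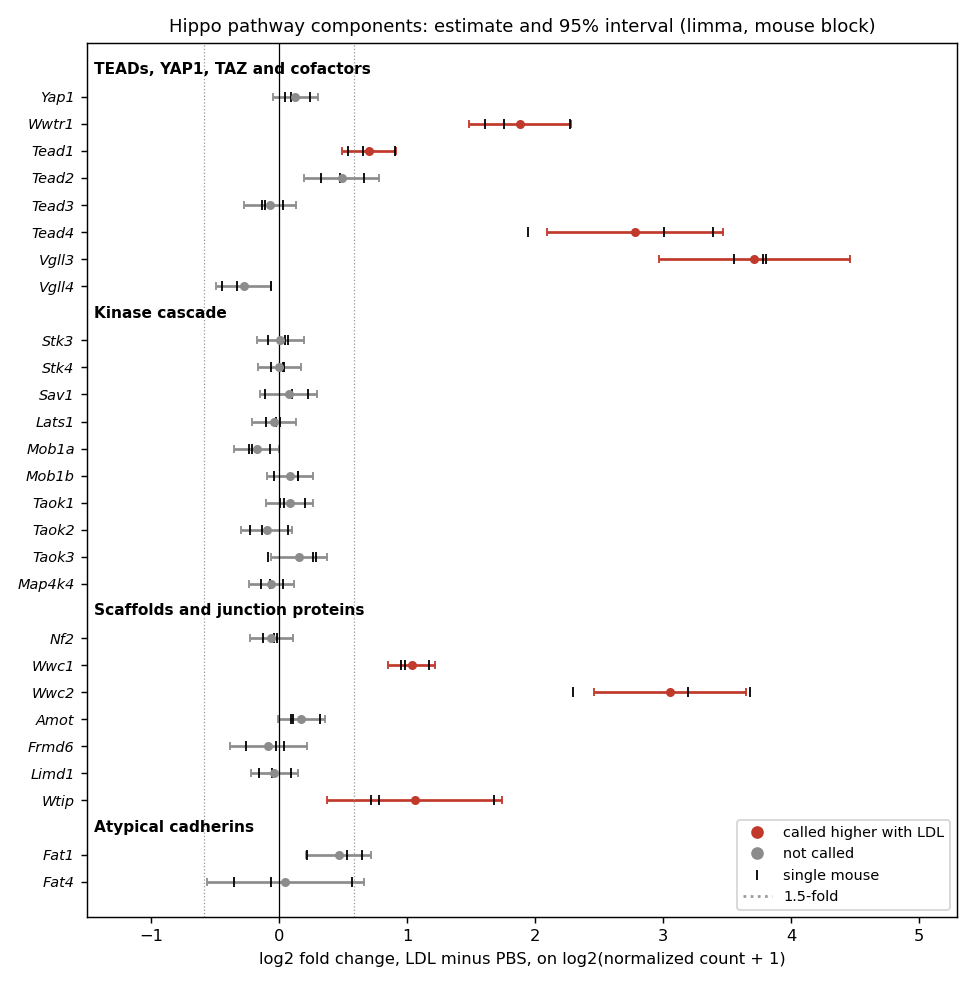
Log2 changes (LDL minus PBS) of 27 Hippo pathway components in 4 groups, with 95% intervals from limma with the mouse as a term, ticks for single mice and dotted lines at 1.5-fold. The kinase cascade is shown without Lats2, which rose and is among the 10 genes, and its other genes sit around 0, whereas Wwtr1, Tead1, Tead4, Vgll3, Wwc1, Wwc2 and Wtip (red) were called higher.

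Levels were also set against those of paralogs, listed after the values of the 10 genes were seen. Lats2, Amotl1 and Ajuba rose and were less abundant than Lats1, Amot and Limd1, which were not called. In other families a more abundant gene rose as well: Wwc1 (PBS mean 1329) beside Wwc2 (38.7), and Tead1 beside Tead4. Per kb of exon, Lats2 was at 0.572% to 0.662% of the level of Lats1 with PBS and at 2.91%, 1.43% and 1.98% with LDL in mice 1, 2 and 3. Amotl1 was at 1.86%, 0.346% and 0.806% of the level of Amot with PBS and at 12.8%, 0.901% and 9.74% with LDL. Ajuba went from 7.18%, 5.90% and 9.84% of the level of Limd1 to 57.4%, 21.2% and 56.8%. Each of these ratios was higher with LDL in 3 of 3 mice, and the smallest p-value that an exact two-sided test on 3 pairs allows is 0.25. These ratios restate the calls above, since the first gene of each rose in every mouse. Lats1, Amot and Limd1 had log2 changes of only -0.04, 0.17 and -0.04.

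**Figure D5:**
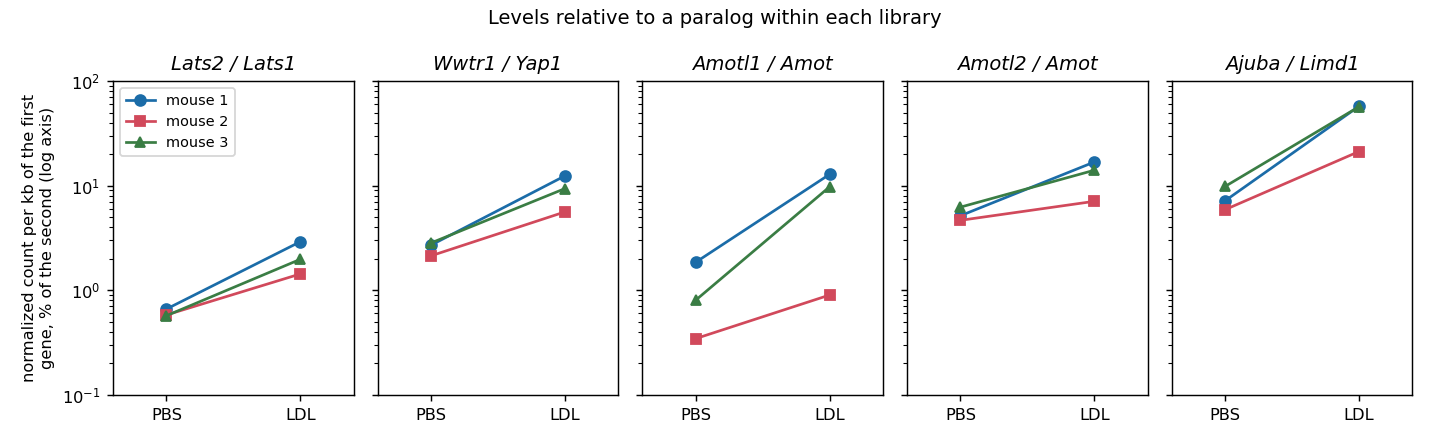
Normalized count per kb of the first gene as a percentage of the second within each library, on a log axis, with a line for each mouse. All 5 ratios were higher with LDL than with PBS in each of the 3 mice, and Ajuba reached 57.4% of Limd1 in mouse 1.

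A further 9 genes are linked to YAP in regenerating intestinal epithelium: Clu, Ly6a, Anxa1, Areg, Ereg, Il33, Msln, Il1rn and Edn1. All 9 were called higher with the mouse as a term (5.68% of all genes tested), with log2 changes of 2.38 to 5.08 and a median of 3.45. Il33 entered the test through its LDL-treated libraries. None was called without that term (0.878% of all genes tested called higher), where all 9 had an unadjusted p-value under 0.05 (limma). Of 10 immediate early genes, a programme of growth factor and stress responses that Ccn1 also belongs to, 9 could be tested (Fosb was under the limit on the mean). Of these, 7 were called higher (5.68% of all genes tested): Fosl1, Ier3, Dusp1, Atf3, Fos, Junb and Jun, with log2 changes of 0.61 to 3.10. Without mouse 3, 1 of the 9 was called (1.44%), and 7 had an unadjusted p-value under 0.05 and a higher mean (limma). Without the mouse as a term only Ier3 was called (0.878%), and 6 had an unadjusted p-value under 0.05 and a higher mean (limma). Ier2 had -0.27 and Srf 0.28, and neither was called. Fosl1, Fos, Junb and Jun encode subunits of the transcription factor AP-1. Fosl1 rose from 8.37 to 80.6 normalized counts on average (adjusted p = 0.000483, limma), below the limit on the mean with PBS. Binding of AP-1 before F3 was not measured, and its part in the level of F3 was not tested. The part of the immediate early response in the levels of Ccn1 and the other targets was not tested.

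Out of 11933 genes whose mean normalized count reached 100, those whose profile over the 6 libraries was most like the mean standardized profile of the 8 tested targets were Tmed10, F11r, Pard6b, Sprr1a and Areg, with Pearson correlations of 0.995 to 0.999. These values describe 6 libraries in 2 groups and carry no test. They differed in size of change: Sprr1a, a cornified envelope gene, had a log2 change of 4.58, the junction and polarity genes F11r and Pard6b had 1.05 and 1.09, and Tmed10, a trafficking receptor, had 0.18 and was not called (adjusted p = 0.150, limma).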

How the data were processed

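RNA-Seq was performed on organoids of 3 mice treated with LDL or PBS. Stranded libraries were made after removal of ribosomal RNA and, per the submitters' processing notes, demultiplexed with bcl2fastq 2.20, aligned with STAR to GRCm39 and counted with featureCounts (DESeq2 is also listed). The strand setting of the counting is not given in the sources used here. The authors deposited signal values, namely the reads of each gene scaled by a size factor of the library (normalized counts). Whole reads were recovered for 100% of values within 0.01 read. Gene names and positions came from GENCODE M39 (54749 identifiers found, 667 not).

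Log2(normalized count + 1) was tested for 18459 genes whose mean reached 10 with limma 3.58.1 in R 4.3.3 (eBayes with a trend, Benjamini-Hochberg over all genes tested), with mouse and treatment as terms. Fold changes on this scale understate those of low genes. The replicate number pairs the libraries because both carry the same animal identifier, and deviations from the treatment means correlated within mice with r = 0.48, 0.42 and 0.46 (across genes). The fit without the mouse was an alternative, since the RNA-Seq methods name no pairing term. The other alternatives were other pseudocounts, filters and scalings, mice or libraries left out, and edgeR 4.0.16 and DESeq2 1.42.0 on the recovered reads. The steps were tested on simulated data. The exact two-sided test of 3 against 3 libraries cannot go below p = 0.1. Counting intervals are exact 95% intervals on the reads of 2 libraries and cover counting error only.

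The members and lists were chosen with earlier results of these data known. The list of paralogs was made after the values of the members were seen. Alternatives and named genes followed rules written down with those results known. Named were the members, genes of the other lists that were called, Yap1, Wwtr1, the Tead genes, Lats1 and Amot, the 5 genes of most similar profile, and further list members given as ranges or single values. Results for some genes and sequences are not reported here.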

Additional observations from a re-analysis of the deposited data

How the results depend on the processing

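Under the alternatives, 106 values of the 8 tested genes kept their direction and side of the threshold, 44 kept the direction but missed the threshold, and none reversed. Of the 106, 19 were values of Nuak2, which kept its side by staying uncalled, and all 44 were of the 7 genes that rose. Nuak2 stayed between -0.40 and -0.22 (log2) with adjusted p-values of 0.0422 to 0.604, under 1.5-fold throughout. The lowest and highest log2 change were 2.15 and 2.85 for Ajuba, 2.06 and 3.79 for Amotl1, 1.09 and 1.58 for Amotl2, 1.03 and 1.91 for Ccn1, 2.38 and 4.02 for Ccn2, 2.82 and 4.87 for F3, and 1.35 and 1.90 for Lats2. Without the replicate block (the mouse as a term), 162 genes were called higher and 73 lower instead of 1048 and 639, with 2 of the 10 targets, 0 other targets, 2 Hippo components, 0 of the intestinal list and 1 immediate early gene. DESeq2 without the replicate block called 358 genes lower. At any fold change 1375 genes were lower, with 1 other target (Crim1), and a mean of at least 50 left 3 other targets called higher and 5 of the 10 targets. Leaving out 1 mouse with the replicate block gave 265 (without mouse 3) to 1604 (without mouse 2) genes higher, 77 to 1348 lower, 3 to 7 of the 10 targets, 0 to 7 other targets higher and 0 to 1 lower, and 1 to 6 immediate early genes. Leaving out 1 library without the replicate block gave 100, 1179 and 18 genes higher and 44, 1133 and 2 lower (without LDL-treated library 1, 2 or 3), 27, 55 and 39 higher and 3, 9 and 7 lower (without PBS-treated library 1, 2 or 3), 0 to 7 of the 10 targets, 0 to 7 other targets higher and 0 to 1 lower, 0 to 6 Hippo components, 0 to 9 of the intestinal list and 0 to 6 immediate early genes. The highest of these counts came without the LDL-treated library of mouse 2, except the 1 other target called lower, which came without that of mouse 1. In the 5 fits with none of the 10 targets called, 6 or 7 of them had an unadjusted p-value under 0.05 (limma). The cause of these differences was not tested. Without a filter, the median of all genes moved from -0.02 to 0.10 (log2). Depth limits Ankrd1, Axl and the PBS level of Ccn2, which rest on 1 to 6 reads in PBS-treated libraries.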
